A study of Saccharomyces cerevisiae with 12 samples.

Results

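Doxycycline (Dox) was compared directly with its epimer 4-epidoxycycline (4-ED) in *S. cerevisiae*, as 3 cultures grown with Dox and 3 grown with 4-ED, which are 6 of the 12 samples of the series. The samples were chosen by the treatment in their labels, and the comparison asks how cells growing with one epimer differ in gene expression from cells growing with the other. Of the 7080 loci listed, 6614 had the status OK with both compounds, 5881 of those had a mean of at least 10 FPKM, a count of fragments scaled for transcript length and library size, over Dox and 4-ED, and 5875 had a value above 0 with both and were compared.

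All groups were of strain R1158, a MATa derivative of BY4741, the strain that the labels name. It carries his3, leu2 and met15 mutations and, at URA3, the transactivator tTA expressed from the CMV promoter. Both epimers, and tetracycline (Tet) in 3 further cultures, were given in YPD at 1.5 μg/ml, and 3 control cultures grew in YPD alone. Cultures were harvested in 1 OD window and not after a fixed time, and those with any tetracycline took longer to get there, so compound and time in culture cannot be told apart. The libraries were made from mRNA-selected RNA. The authors combined the 3 libraries of a group into 1 FPKM value per locus, so no value here has a replicate error, no difference between Dox and 4-ED could be tested, and the depth behind a single locus is unknown.

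Tetracyclines block the bacterial ribosome and, through the bacterial ancestry of mitochondria, can act on mitochondrial translation. In Tet-Off yeast strains they release tTA from its operator, which shuts off the promoter placed under its control. R1158 has the transactivator without such a promoter. 4-ED has the same formula as Dox and differs in the configuration at the carbon that carries the dimethylamino group. Equal masses of the free compounds are thus equal molar amounts. The salt forms used are not given in the sources used here, so whether the molar doses were equal is not known. Yeast growing on glucose keeps genes for other carbon sources, for respiration and for uptake of poor nitrogen sources repressed, and makes ribosomes in step with its growth rate. Whether the cultures here were in that state was not tested. In control, PCK1 and FBP1, genes for growth on other carbon sources, had 1482 FPKM and 1038 FPKM, and the hexokinase gene HXK2 had 37.3 FPKM.

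The marker genes of the strain were read in both groups. LEU2 and MET17, the gene also called MET15, were listed at 0 with Dox, 4-ED, Tet and in control. The mutated HIS3 was not at 0, with 68.0 FPKM with Dox and 60.5 FPKM with 4-ED, and URA3, the site of tTA, had 251 FPKM with Dox and 298 FPKM with 4-ED. The MATa pheromone gene MFA1 had 2477 FPKM with Dox and 2252 FPKM with 4-ED, and the receptor gene STE2 had 116 FPKM with Dox and 109 FPKM with 4-ED. Of the genes of the opposite mating type, STE3 had 5.45 FPKM with Dox and 5.10 FPKM with 4-ED, whereas MF(ALPHA)1 had 38.8 FPKM with Dox and 36.2 FPKM with 4-ED, and MF(ALPHA)2 had 32.5 FPKM with each.

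The expression values with Dox and with 4-ED lay close together at most loci. Values were put on 1 scale through the control libraries, which both deposited tables share, and the log2 ratio of Dox to 4-ED had a median of -0.04 and an SD of 0.32 across the 5875 loci. Of these, 95.5% differed by less than 1.5-fold. A total of 65 loci (1.11%) were at least 1.5-fold higher with Dox, and 197 loci (3.35%) were at least 1.5-fold lower with Dox. Ratios above 0 were found at 2525 loci (43%) and ratios below 0 at 3350 loci (57%). The excess of lower loci lay among short loci and among loci that share a listed span with another, where 69 of 975 were lower and 28 were higher. Among 4150 protein-coding genes of at least 500 bp that share no listed span with another locus, a selection made after the values were seen, 24 were higher and 26 were lower, with a median of -0.02 and an SD of 0.21.

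The ratio also moved with expression level across all loci. The median log2 ratio was 0.07 for 1548 loci with a mean of 10 to 30 FPKM, and it was -0.03 for 2120 loci at 30 to 100 FPKM. It was -0.10 for 1253 loci at 100 to 300 FPKM, -0.09 for 648 loci at 300 to 1000 FPKM and -0.18 for 306 loci above that. Abundant transcripts thus tended to be lower with Dox and scarce ones higher, and the median left after subtraction of the level bins is given beside each list for which that moved it by 0.1 or more. GC content and the ratio were hardly correlated, with Pearson's r and Spearman's rho both at -0.01 across 5533 loci measured in the same libraries. The share of loci past 1.5-fold did differ with GC content. From the lowest to the highest quartile of GC content, 3.47%, 1.23%, 1.45% and 3.97% were lower with Dox, and 0.36%, 1.08%, 1.16% and 0.94% were higher.

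**Figure D1:**
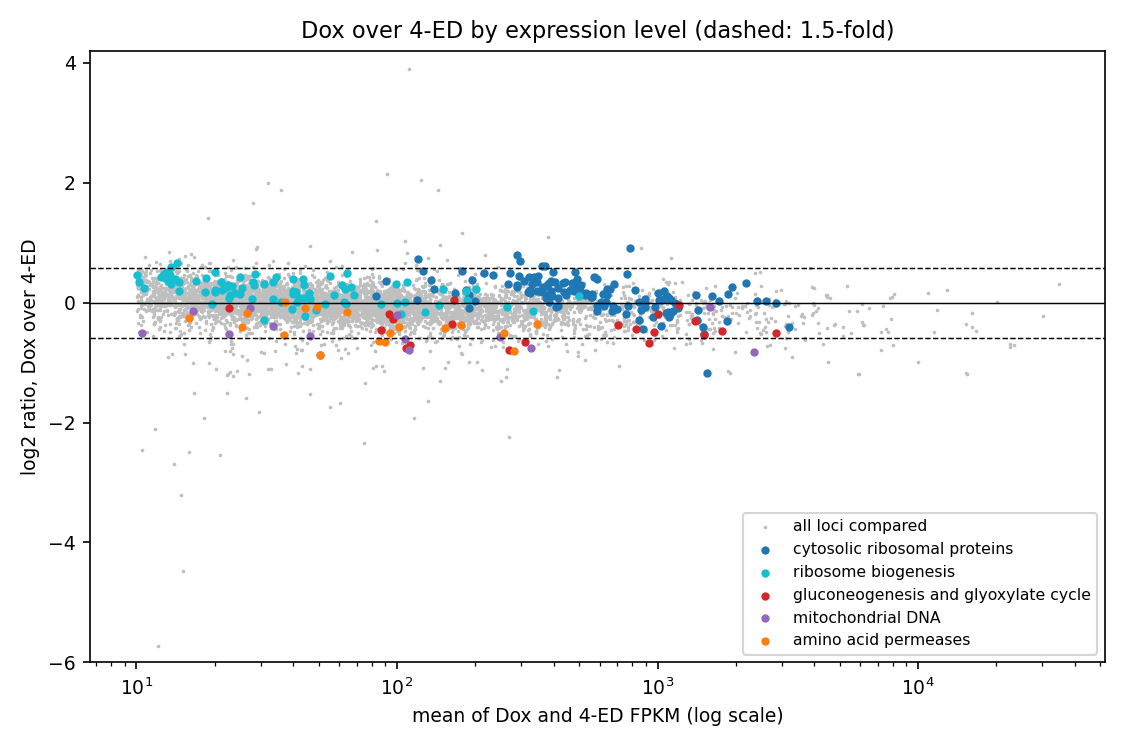
Each point is 1 of the 5875 loci, with the mean of its Dox and 4-ED values in FPKM on a log axis against the log2 ratio of Dox to 4-ED, and 5 gene groups are coloured. Genes of gluconeogenesis, amino acid permeases and mitochondrial DNA lie mostly below 0, and most genes of ribosome biogenesis and of the cytosolic ribosome lie above 0, most of them inside the dashed 1.5-fold lines.

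Most genes listed for growth on carbon sources other than glucose were lower with Dox than with 4-ED, and the hexokinase gene HXK2 was higher. Of 20 genes of gluconeogenesis and the glyoxylate cycle, which turn acetate, lactate and other carbon compounds into sugar, 19 had a ratio below 0, against 57% of all loci. Of these, 5 were at least 1.5-fold lower and 0 were at least 1.5-fold higher, and the median was -0.45, against -0.04 over all loci. With each gene set against the median of its bin of expression level, the list's median was -0.32. In every list that follows, members on either side of 0 are to be read against 43% of all loci above and 57% below it, and members past 1.5-fold against 1.11% higher and 3.35% lower. The members were chosen with earlier results of these data known.

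The acetate route held the largest differences on that list. ADY2, an acetate transporter of the plasma membrane (YCR010C, III: 132273 to 133124), had 196 FPKM with Dox, against 341 FPKM with 4-ED, with 262 FPKM with Tet and 257 FPKM in control. ACS1, an acetyl-CoA synthetase (YAL054C, I: 42881 to 45022), had 80.6 FPKM with Dox and 136 FPKM with 4-ED, and Tet and control lay at 121 FPKM and 123 FPKM. For both genes the Dox value was the lowest of the 4 groups and the 4-ED value the highest, with Tet and control close together between them. ALD6, the cytosolic dehydrogenase that makes acetate from acetaldehyde, is used by cells on glucose as well. Its Dox value was also the lowest and its 4-ED value the highest, with 715 FPKM with Dox, 1143 FPKM with 4-ED, 1001 FPKM with Tet and 893 FPKM in control.

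The enzymes that carry acetate on to sugar differed in another way from control. MDH2, the cytosolic malate dehydrogenase (YOL126C, XV: 81787 to 82920), had 85.5 FPKM with Dox and 140 FPKM with 4-ED, while Tet had 113 FPKM and control 83.5 FPKM. The isocitrate lyase gene ICL1, the remaining member past 1.5-fold and named after its value was seen, had 242 FPKM with Dox, 380 FPKM with 4-ED, 372 FPKM with Tet and 168 FPKM in control. The key enzymes of gluconeogenesis lay within 1.5-fold between the epimers. PCK1, which encodes phosphoenolpyruvate carboxykinase, had 2360 FPKM with Dox, 3360 FPKM with 4-ED, 3223 FPKM with Tet and 1482 FPKM in control. FBP1, which encodes fructose-1,6-bisphosphatase, had 1478 FPKM with Dox, 2058 FPKM with 4-ED, 2152 FPKM with Tet and 1038 FPKM in control. SFC1, the mitochondrial succinate-fumarate carrier gene, had 806 FPKM with Dox, 1132 FPKM with 4-ED, 1000 FPKM with Tet and 450 FPKM in control. In these 3 genes every tetracycline group lay above control, and Dox lay lowest of the 3 compounds. They were named because the study reports each as changed from control by some or all of these compounds in the same libraries. Their place above control thus came at least in part with the choice. VID24, whose product directs gluconeogenic enzymes to breakdown, had 142 FPKM with Dox and 182 FPKM with 4-ED, both below the 296 FPKM of control. VID24 was named for the same reason. At the other end of the list, ADH2, the alcohol dehydrogenase gene used on ethanol, had 168 FPKM with Dox and 163 FPKM with 4-ED.

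HXK2, which encodes the main hexokinase of cells on glucose and takes part in glucose repression (YGL253W, VII: 23935 to 25395), was 1.85-fold higher with Dox. It had 37.4 FPKM with Dox, against 20.2 FPKM with 4-ED, with 31.7 FPKM with Tet and 37.3 FPKM in control, so that 4-ED was the lowest of the 4 groups. It was the highest of 21 genes of glycolysis and fermentation, of which 16 had a ratio above 0, against 43% of all loci, and only HXK2 passed 1.5-fold. The list's median was 0.09, and 0.21 after subtraction of the level bins. Its lowest member was PDC6, a minor pyruvate decarboxylase gene, at -0.46. Of 9 hexose transporter genes compared, 7 had a ratio below 0 and none passed 1.5-fold. The median was -0.09, from HXT5 at -0.55 to HXT7 at 0.02. HXT6 and HXT7, high-affinity glucose transporters that are near-identical copies of each other, had 1383 and 1169 FPKM with Dox, against 1422 and 1156 FPKM with 4-ED.

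Other parts of carbon oxidation differed less. Of 18 genes of fatty acid oxidation, which yeast carries out in peroxisomes, 17 had a ratio below 0 but none passed 1.5-fold, with a median of -0.20 and of -0.16 after subtraction of the level bins. CAT2, a carnitine acetyltransferase gene, had 174 FPKM with Dox and 220 FPKM with 4-ED. For the TCA cycle 9 of 18 genes lay on each side of 0, with a median of -0.03, which was 0.11 after subtraction of the level bins. SDH2, a subunit of succinate dehydrogenase, was its highest member at 0.28, with 2726 FPKM with Dox and 2246 FPKM with 4-ED.

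**Figure D2:**
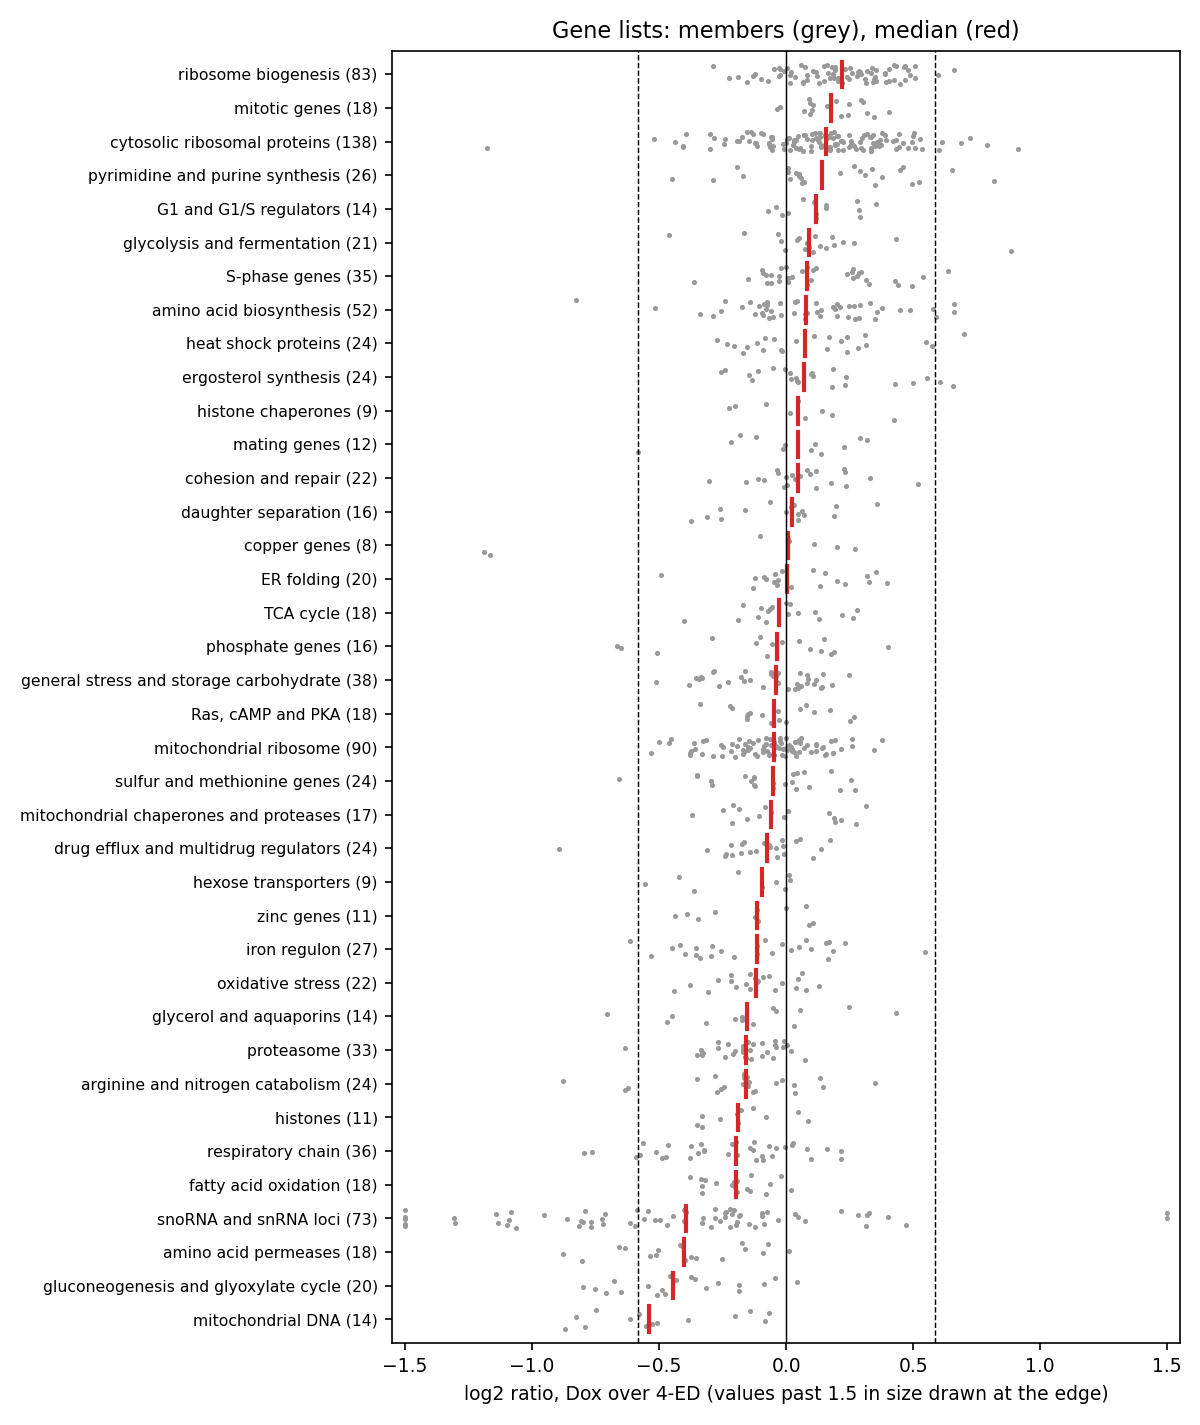
Rows are the 38 gene lists with members compared, with their number in brackets, and the horizontal axis is the log2 ratio of Dox to 4-ED of each member (grey) and of the list's median (red), with members past 1.5 in size drawn at the edge. The medians run from -0.54 for mitochondrial DNA to 0.22 for ribosome biogenesis, and most members of every list lie inside the dashed 1.5-fold lines.

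Transcripts of the mitochondrial genome were lower with Dox than with 4-ED. Of 31 loci on mitochondrial DNA, 14 could be compared, and all 14 had a ratio below 0. Of these, 5 were at least 1.5-fold lower, and the median was -0.54. Most of them share a listed span with another locus, since introns of COX1 hold reading frames of their own, so these 14 are not separate measurements. The strand setting of the counting is not given in the sources used here. The GC content of the members had a median of 23.0%. After subtraction of the bins of GC content the median was -0.45, and it was -0.52 after subtraction of either the length bins or the level bins. Among members that averaged 100 FPKM or more it was -0.68.

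OLI1, which encodes the ring subunit of the mitochondrial ATP synthase (Q0130, MT: 46723 to 46953), had 1688 FPKM with Dox and 2995 FPKM with 4-ED, with 2135 FPKM with Tet and 1724 FPKM in control. The small ribosomal RNA gene 15S_RRNA (Q0020, MT: 6546 to 8194) had 35.9 FPKM with Dox and 65.5 FPKM with 4-ED, with 39.1 FPKM with Tet and 28.1 FPKM in control. These 2 loci share no span with another, and in both 4-ED was highest while Dox lay near Tet and control. COX1, a subunit of cytochrome oxidase, had 81.6 FPKM with Dox and 141 FPKM with 4-ED, with 86.3 FPKM with Tet and 89.7 FPKM in control. The remaining members past 1.5-fold were Q0297 at -0.75 and AI5_BETA, named after its value was seen, at -0.61. VAR1, a mitochondrial ribosomal protein gene also named after its value was seen, had 92.9 FPKM with Dox and 107 FPKM with 4-ED. Over the 14 loci the median log2 ratio to control was 0.06 with Dox, 0.61 with 4-ED and 0.04 with Tet, where the 3 values share the control libraries. Mitochondrial transcripts are not made with the long poly(A) tails by which mRNA is selected, and the part of selection in these values was not tested.

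Nuclear genes for the mitochondrion followed in part. Of 36 genes for the respiratory chain and the ATP synthase, 29 had a ratio below 0. COX7, COX9 and QCR10 were at least 1.5-fold lower with Dox and 0 were higher. The median was -0.20. COX7 and COX9 encode small subunits of cytochrome oxidase. COX7 (YMR256C, XIII: 778945 to 779127) had 5247 FPKM with Dox, 9119 FPKM with 4-ED, 6514 FPKM with Tet and 4978 FPKM in control. COX9 (YDL067C, IV: 334217 to 334396) had 2285 FPKM with Dox, 3877 FPKM with 4-ED, 3154 FPKM with Tet and 2522 FPKM in control. QCR10, a small subunit of the cytochrome bc1 complex, was lower by less, at -0.59. These genes are short and abundant, and 22 of the 36 are under 500 bp. After subtraction of the length bins the list's median was -0.08, and after subtraction of the level bins it was -0.03, close to that of all loci. QCR6 stood at the other end, at 0.22.

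The genes that build and look after mitochondria differed little. Of 90 genes for the mitochondrial ribosome, 57 had a ratio below 0, against 57% of all loci, and none passed 1.5-fold. The median was -0.05, and 0.05 after subtraction of the level bins. Of 17 genes for mitochondrial chaperones and proteases, 10 lay below 0, and none passed 1.5-fold. The median was -0.06, which was 0.19 among members that averaged 100 FPKM or more. HSP60, the matrix chaperonin, had 828 FPKM with Dox and 685 FPKM with 4-ED, and its co-chaperonin gene HSP10 had 3625 FPKM with Dox and 4204 FPKM with 4-ED. The pair lay on opposite sides of 0, but HSP10 has 321 bp and HSP60 1719 bp. HSP10, at -0.21, falls in a length bin with a median of -0.11 and a level bin with a median of -0.18.

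**Figure D3:**
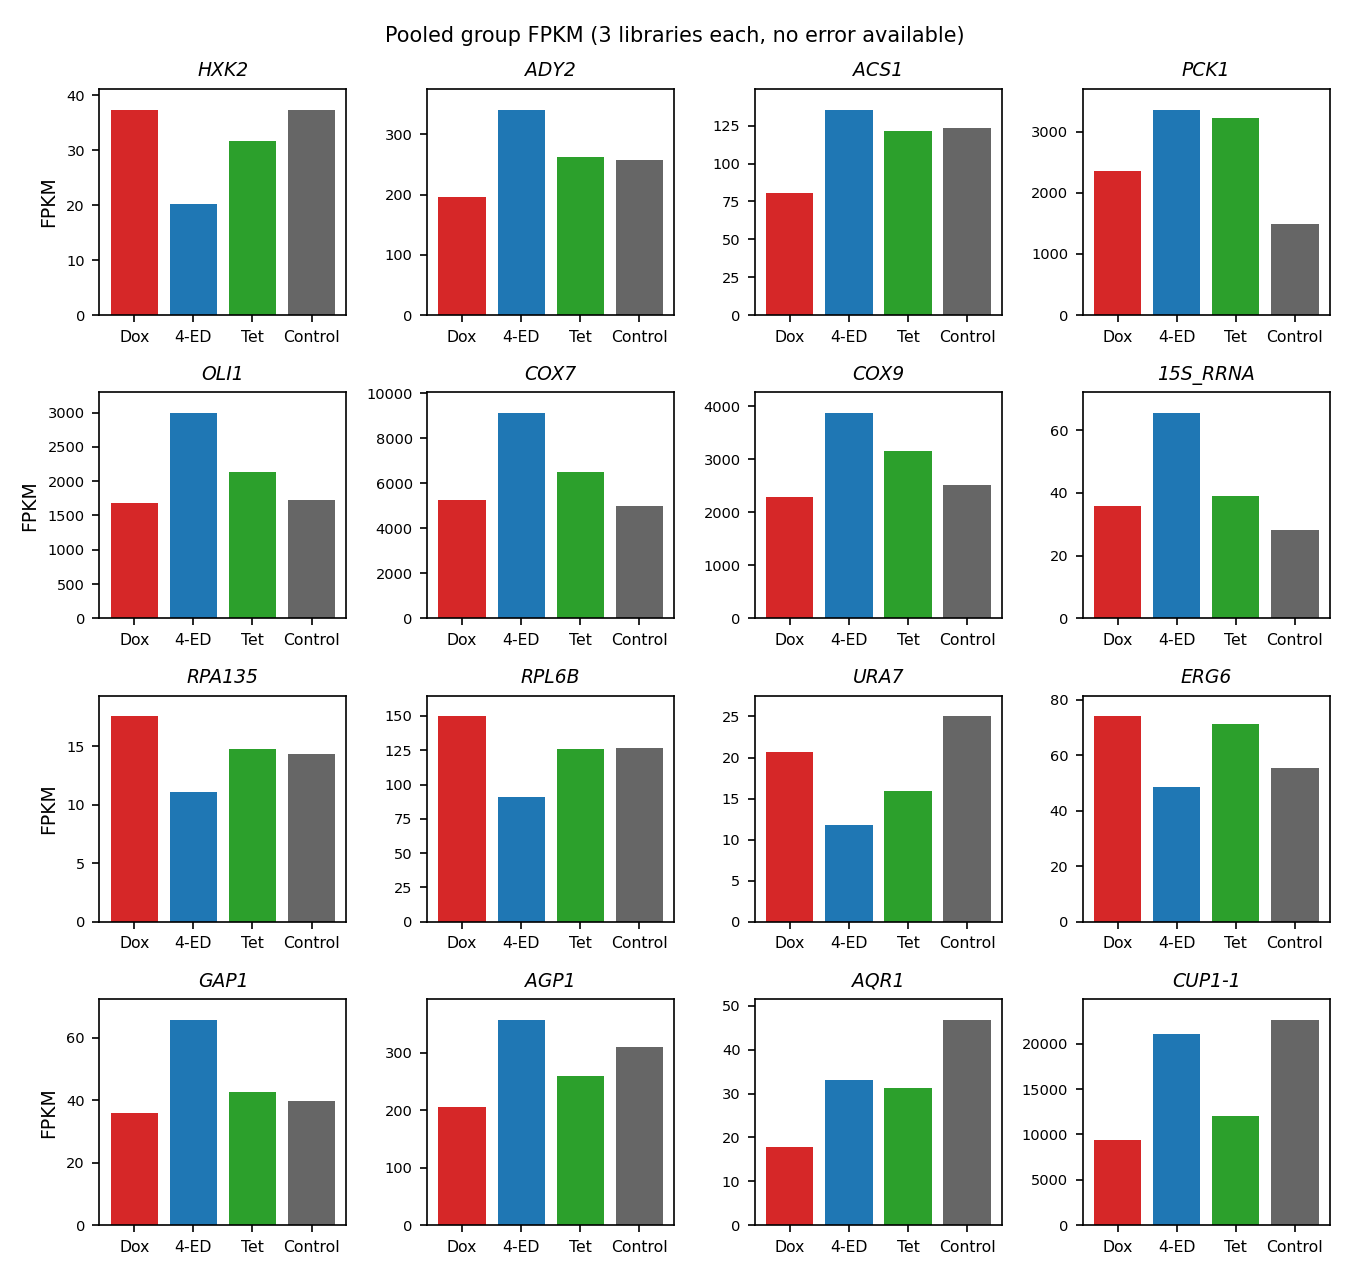
Bars give the pooled FPKM of 16 genes in the Dox, 4-ED, Tet and control groups, each from 3 libraries and with no error available, on axes that start at 0. HXK2 stands at 37.4 FPKM with Dox and 20.2 FPKM with 4-ED, and OLI1 at 1688 FPKM with Dox and 2995 FPKM with 4-ED. The 16 genes were picked by hand from those named, and the Tet value lies between the epimers in each panel. Over all loci past 1.5-fold, Tet lay between the epimers in 46 of 64 higher and 156 of 196 lower with Dox.

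Genes for making ribosomes were slightly higher with Dox than with 4-ED. Of 83 genes of ribosome biogenesis compared, which encode RNA polymerase I and the factors that process and assemble ribosomal RNA, 69 had a ratio above 0, against 43% of all loci. RPA135 and HAS1 were at least 1.5-fold higher and 0 were lower, and the median was 0.22. The drift with expression level left the median at 0.21 after subtraction of the level bins, but members that averaged 100 FPKM or more had a median of 0.02. RPA135, the second largest subunit of RNA polymerase I (YPR010C, XVI: 577585 to 581196), had 17.6 FPKM with Dox and 11.1 FPKM with 4-ED, with 14.8 FPKM with Tet and 14.4 FPKM in control. HAS1, an RNA helicase gene that shares its span with another locus, stood at 0.60. SPB4, another helicase gene, was lowest at -0.29. For both groups of ribosome genes the members past 1.5-fold are few, and the shift is one of many small differences.

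The PAC box, with the letters GATGAG, is known from promoters of ribosome biogenesis genes. It was searched on both strands in the 300 bases that begin 400 before the start codon. It was found in 69.9% of the 83 genes of the list, against 18.4% of 6001 windows over the genome, and in 23.4% of 47 loci higher with Dox and 21.2% of 99 loci lower with Dox that have a window. The windows of RPA135, the gene with the highest ratio in its list, and of URA7, the gene with the highest ratio among the nucleotide genes below, are shown with the letters of the box in capitals, read from the R64 genome on the minus strand (RPA135, XVI: 581297 to 581596, and URA7, II: 145829 to 146128). In URA7 a pair of matches overlap.
RPA135: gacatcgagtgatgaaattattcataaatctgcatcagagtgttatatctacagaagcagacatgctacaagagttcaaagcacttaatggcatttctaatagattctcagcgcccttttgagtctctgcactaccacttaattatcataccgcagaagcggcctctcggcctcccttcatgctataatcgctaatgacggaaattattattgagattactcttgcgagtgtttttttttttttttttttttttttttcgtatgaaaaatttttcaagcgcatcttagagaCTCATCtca
URA7: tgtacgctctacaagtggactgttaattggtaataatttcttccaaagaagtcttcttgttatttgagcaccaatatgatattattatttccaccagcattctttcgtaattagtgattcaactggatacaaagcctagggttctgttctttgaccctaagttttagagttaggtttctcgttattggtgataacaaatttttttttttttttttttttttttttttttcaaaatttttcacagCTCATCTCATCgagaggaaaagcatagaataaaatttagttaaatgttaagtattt
Both windows hold the box in its reverse orientation, CTCATC, on the strand shown.

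Of 138 genes for cytosolic ribosomal proteins, 104 had a ratio above 0. A total of 6 were at least 1.5-fold higher and 1 was lower, with a median of 0.16, of 0.19 after subtraction of the length bins and of 0.27 after subtraction of the level bins. Many of these genes come as near-identical pairs, between which reads can be shared out differently. RPL28, a single-copy gene that shares its span with another locus, had 365 FPKM with Dox and 211 FPKM with 4-ED, with 411 FPKM with Tet and 321 FPKM in control. RPL6B (YLR448W) had 150 FPKM with Dox and 90.6 FPKM with 4-ED, with 126 FPKM with Tet and 127 FPKM in control. The others past 1.5-fold were the RPL41 pair and, named after their values were seen, RPL8A at 0.69, RPL16A at 0.61 and RPL21A at 0.60.

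RPL41A and RPL41B encode a ribosomal protein of very small size and had ratios of opposite sign. RPL41A (YDL184C) had 950 FPKM with Dox and 2152 FPKM with 4-ED, with 1375 FPKM with Tet and 819 FPKM in control, a log2 ratio of -1.18. RPL41B (YDL133C-A) had 1021 FPKM with Dox and 543 FPKM with 4-ED, with 154 FPKM with Tet and 580 FPKM in control, a log2 ratio of 0.91. The reading frames are printed because they differ in 1 of 78 bases, shown in capitals. They are given from start to stop codon in R64, on the minus strand of chromosome IV, at 130407 to 130484 for RPL41A and at 221724 to 221801 for RPL41B.
RPL41A: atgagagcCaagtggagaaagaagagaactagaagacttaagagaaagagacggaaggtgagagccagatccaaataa
RPL41B: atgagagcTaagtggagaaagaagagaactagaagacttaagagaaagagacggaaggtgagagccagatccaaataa
The frames are 98.7% identical, and how the counting divided reads that match both is not given in the sources used here. Summed over the pair, there were 1971 FPKM with Dox and 2694 FPKM with 4-ED, with 1529 FPKM with Tet and 1399 FPKM in control, and the summed log2 ratio was -0.45. The share given to RPL41A was 48.2% with Dox and 79.8% with 4-ED, against 89.9% with Tet and 58.6% in control.

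Genes for the building blocks of growing cells were also higher with Dox in part. Of 26 genes of pyrimidine and purine synthesis, 22 had a ratio above 0, and URA7 and IMD4 were at least 1.5-fold higher. The median was 0.14, and 0.04 among members with a mean of at least 100 FPKM. URA7, the main CTP synthase gene (YBL039C, II: 143989 to 145728), had 20.7 FPKM with Dox and 11.7 FPKM with 4-ED, with 15.9 FPKM with Tet and 25.02 FPKM in control. IMD4, an IMP dehydrogenase gene of GTP synthesis, had 23.2 FPKM with Dox and 14.8 FPKM with 4-ED, with 20.3 FPKM with Tet and 23.3 FPKM in control. Both share a listed span with another locus. For IMD4 this is the snoRNA gene snR54, which lies inside it (XIII: 163535 to 163620) and had 150 FPKM with Dox and 34.0 FPKM with 4-ED, with 45.5 FPKM with Tet and 104 FPKM in control. In each enzyme gene the 4-ED value was the lowest of the 4 groups. The lowest member was URA10, a minor gene of the pyrimidine pathway, at -0.45.

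In ergosterol synthesis, which supplies the main sterol of yeast membranes, 17 of 24 genes had a ratio above 0 and the median was 0.07. ERG2 and ERG6, which act late in the pathway, were at least 1.5-fold higher. ERG2 (YMR202W) had 131 FPKM with Dox and 82.9 FPKM with 4-ED, with 106 FPKM with Tet and 115 FPKM in control. ERG6 (YML008C) had 74.0 FPKM with Dox and 48.5 FPKM with 4-ED, with 71.2 FPKM with Tet and 55.4 FPKM in control. INO1, which encodes the first enzyme of inositol synthesis and was among the 12 protein-coding genes with the highest ratio, had 277 FPKM with Dox and 159 FPKM with 4-ED, with 264 FPKM with Tet and 172 FPKM in control. For ERG6 and INO1 Dox lay with Tet and 4-ED lay with control.

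Among 52 genes of amino acid biosynthesis, 31 had a ratio above 0, against 43% of all loci. A total of 3 were at least 1.5-fold higher, against 1.11% of all loci, and 1 was lower, against 3.35%, with a median of 0.08, which was -0.07 among members that averaged 100 FPKM or more. HOM3, the aspartate kinase gene at the head of threonine and methionine synthesis, had 18.1 FPKM with Dox and 11.5 FPKM with 4-ED. HIS6, of histidine synthesis, had 46.7 FPKM with Dox and 29.6 FPKM with 4-ED, and shares its span with another locus. The member that was lower, GDH1, encodes the main glutamate dehydrogenase of ammonium assimilation (YOR375C, XV: 1041678 to 1043042). It had 356 FPKM with Dox and 631 FPKM with 4-ED, with 470 FPKM with Tet and 391 FPKM in control. YOR376W, an ORF of 369 bp that lies next to GDH1, also lay among the 12 protein-coding genes with the lowest ratio, with 13.6 FPKM with Dox and 31.2 FPKM with 4-ED.

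CPA1, the small subunit of the carbamoyl phosphate synthetase of arginine synthesis (YOR303W, XV: 882899 to 884134), was the third gene on the higher side. It had 295 FPKM with Dox and 196 FPKM with 4-ED, with 318 FPKM with Tet and 314 FPKM in control. YOR302W, listed as a locus of its own, is the short reading frame in the leader of the CPA1 mRNA through which arginine represses CPA1 translation. It had 225 FPKM with Dox and 61.5 FPKM with 4-ED, with 205 FPKM with Tet and 541 FPKM in control. At 1.87 it shared the highest log2 ratio of all protein-coding loci with RRT15, and it went the same way as CPA1, with 4-ED lowest at both. At 78 bp it is close to the length of a read, and it lies on the same transcript as CPA1, so the pair is not 2 separate observations.

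Genes for taking up amino acids were lower with Dox than with 4-ED. Of 18 permease genes compared, 17 had a ratio below 0, against 57% of all loci, and 4 were at least 1.5-fold lower. The median was -0.40, and -0.32 after subtraction of the level bins. GAP1, the general amino acid permease used when preferred nitrogen runs short (YKR039W, XI: 515063 to 516871), had 35.8 FPKM with Dox and 65.8 FPKM with 4-ED, with 42.6 FPKM with Tet and 39.8 FPKM in control. AGP1, a permease of broad range (YCL025C, III: 76018 to 77919), had 205 FPKM with Dox and 358 FPKM with 4-ED, with 259 FPKM with Tet and 311 FPKM in control. In both genes 4-ED was the highest of the 4 groups and Dox the lowest. SAM3, for S-adenosylmethionine, stood at -0.66 and PUT4, for proline, at -0.63. HIP1, the histidine permease gene, was the only member above 0, at 0.01. Over the list the median log2 ratio to control was -0.28 with Dox, 0.08 with 4-ED and -0.13 with Tet.

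In a list of genes for arginine and nitrogen use, which also holds the permease genes GAP1 and PUT4, 19 of 24 members had a ratio below 0. A total of 3 were at least 1.5-fold lower, and the median was -0.16. Besides these 2 permease genes, GDH3 passed 1.5-fold, with 1157.8 FPKM with Dox and 1782 FPKM with 4-ED, against 1258 FPKM in control. GDH3 is a glutamate dehydrogenase gene repressed on glucose, and like GDH1 its enzyme makes glutamate. None of the 3 members past 1.5-fold thus encodes an enzyme of breakdown. The arginase gene CAR1 had 78.8 FPKM with Dox and 76.8 FPKM with 4-ED, against 147 FPKM in control, and CAR2, the next enzyme of arginine breakdown, had 45.5 FPKM with Dox and 49.8 FPKM with 4-ED, against 86.0 FPKM in control. These 2 genes were thus far from control with both epimers and near each other between the epimers. They were named because the study reports them as changed from control with both epimers in these same libraries. Their distance from control was thus part of the choice and is no separate finding.

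GATA factors are known to act on such genes through sites with the letters GATAAG. These letters were searched on both strands in the same 300 bases, and they were found in 70.8% of the 24 nitrogen genes, against 13.9% of all windows, but in 16.7% of the 18 permease genes. They were in 14.1% of the loci lower with Dox and in 19.1% of the loci higher with Dox. Of other permease genes past 1.5-fold, PUT4, which is on both lists, has 0 matches in its window and AGP1 has 1. The window of GAP1, the gene with the lowest ratio on both lists, holds 3 matches, shown in capitals in either orientation (R64, XI: 514663 to 514962, plus strand).
GAP1: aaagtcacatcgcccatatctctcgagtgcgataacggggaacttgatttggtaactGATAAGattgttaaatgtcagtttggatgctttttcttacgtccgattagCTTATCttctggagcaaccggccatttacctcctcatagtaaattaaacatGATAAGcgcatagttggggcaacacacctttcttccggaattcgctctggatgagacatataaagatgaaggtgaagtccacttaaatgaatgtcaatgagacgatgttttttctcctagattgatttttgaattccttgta

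Transport genes of other kinds held few differences. Of 24 genes for drug efflux and its regulators, 19 had a ratio below 0 with a median of -0.08, and only AQR1 passed 1.5-fold. AQR1, an exporter of short-chain acids and amino acids (YNL065W, XIV: 503724 to 505484), had 17.9 FPKM with Dox and 33.2 FPKM with 4-ED, with 31.4 FPKM with Tet and 46.9 FPKM in control. PDR5, the main drug efflux pump and named after its value was seen, had 34.95 FPKM with Dox and 41.3 FPKM with 4-ED. FRE7, a metalloreductase gene known to respond to low copper and among the 12 protein-coding genes with the highest ratio (YOL152W, XV: 40748 to 42610), had 86.4 FPKM with Dox and 47.9 FPKM with 4-ED, with 72.9 FPKM with Tet and 82.0 FPKM in control. The copper list held 8 genes, with 2 lower and a median of 0.01, which was -0.10 among members that averaged 100 FPKM or more. The 2 were CUP1-1 and CUP1-2, identical copies of the metallothionein gene on chromosome VIII, whose reads cannot be told apart. CUP1-1 (YHR053C, VIII: 212535 to 212720) was listed at 9379 FPKM with Dox and 21060 FPKM with 4-ED, with 11997 FPKM with Tet and 22652 FPKM in control. Dox lay with Tet, and 4-ED lay with control. CTR1, the high-affinity copper transporter gene, was the highest of the list at 0.27.

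Protein breakdown and folding genes were close between the epimers. Of 33 proteasome genes, 30 had a ratio below 0, against 57% of all loci. Only PRE2 was at least 1.5-fold lower, where 3.35% of all loci were. The median was -0.16, and -0.06 after subtraction of the level bins. PRE2, a catalytic subunit (YPR103W), had 293 FPKM with Dox and 454 FPKM with 4-ED, with 406 FPKM with Tet and 345 FPKM in control. Of 24 heat shock genes, 13 had a ratio above 0 with a median of 0.07, which was 0.18 after subtraction of the level bins, and CUR1, a sorting factor for misfolded proteins, passed 1.5-fold at 0.70.

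Genes of the cell cycle and of DNA replication differed little between Dox and 4-ED. Of 43 S-phase genes, 35 were compared, and 23 of these had a ratio above 0. RNR1 was at least 1.5-fold higher. The list's median was 0.08, which was -0.09 among members that averaged 100 FPKM or more. RNR1, the large subunit of ribonucleotide reductase (YER070W, V: 298950 to 301616), had 14.96 FPKM with Dox and 9.62 FPKM with 4-ED, with 13.5 FPKM with Tet and 8.45 FPKM in control. It lay under 10 FPKM with 4-ED and in control, so it met the minimum mean only through its Dox value. The lowest was PSF3, of the GINS complex of the replication fork, at -0.36. Of 25 genes of cohesion and repair, 22 were compared and 15 of these lay above 0, with a median of 0.05 and ECO1 highest at 0.52. Of 14 G1 regulators compared, 11 lay above 0 with a median of 0.12. Of 18 mitotic genes compared, 16 lay above 0 with a median of 0.18. None of these 3 lists had a member past 1.5-fold. Of 11 histone genes 9 lay below 0, with a median of -0.19, and 9 of the 11 are under 500 bp. After subtraction of the length bins that median was -0.10, and after subtraction of the level bins it was -0.08.

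Of the genes that the study names in its account of single tetracyclines, HXK2 and RNR1 differed by over 1.5-fold between the epimers, as given above. The others given here differed by less, and not every gene that the study names is given. ASF1, a histone chaperone gene, had 89.7 FPKM with Dox and 66.8 FPKM with 4-ED, with 100 FPKM with Tet and 54.7 FPKM in control. SMC1, a cohesin subunit gene, had 24.1 FPKM with Dox and 22.2 FPKM with 4-ED, with 24.7 FPKM with Tet and 14.9 FPKM in control. GIN4, a bud neck kinase gene, stood at 0.19 and KAR3, a kinesin gene, at 0.11. Of these 4 genes, each lay above control with Dox and with 4-ED. The study reports them as changed from control with Dox and with Tet in the same libraries. Their place above control with Dox was thus part of the choice and is no separate finding. GPP2, of glycerol synthesis, had 80.6 FPKM with Dox and 67.9 FPKM with 4-ED, against 130 FPKM in control.

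In mating genes, 6 of 12 lay on each side of 0. MFA2, a pheromone gene of 117 bp, was the lowest at -0.58, just inside 1.5-fold, with 2959 FPKM with Dox and 4432 FPKM with 4-ED, while MFA1 stood at 0.14.

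Among protein-coding loci, many of the largest ratios belonged to short ones. The 12 protein-coding loci with the lowest ratio were all under 500 bp, and so were 7 of the 12 with the highest ratio. Of 327 loci under 300 bp, 77 (23.5%) were at least 1.5-fold lower with Dox and 11 (3.36%) were higher, with a median of -0.33. Of 520 loci between 300 and 500 bp, 32 (6.15%) were lower and the median was -0.11. From 500 bp up, the median lay between -0.03 and 0.01 and under 1% of loci passed 1.5-fold on either side. Across the 5533 loci with a length of their own, the log2 ratio and the log10 length were correlated with Pearson's r at 0.24 and Spearman's rho at 0.19, over points that share the same libraries.

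**Figure D4:**
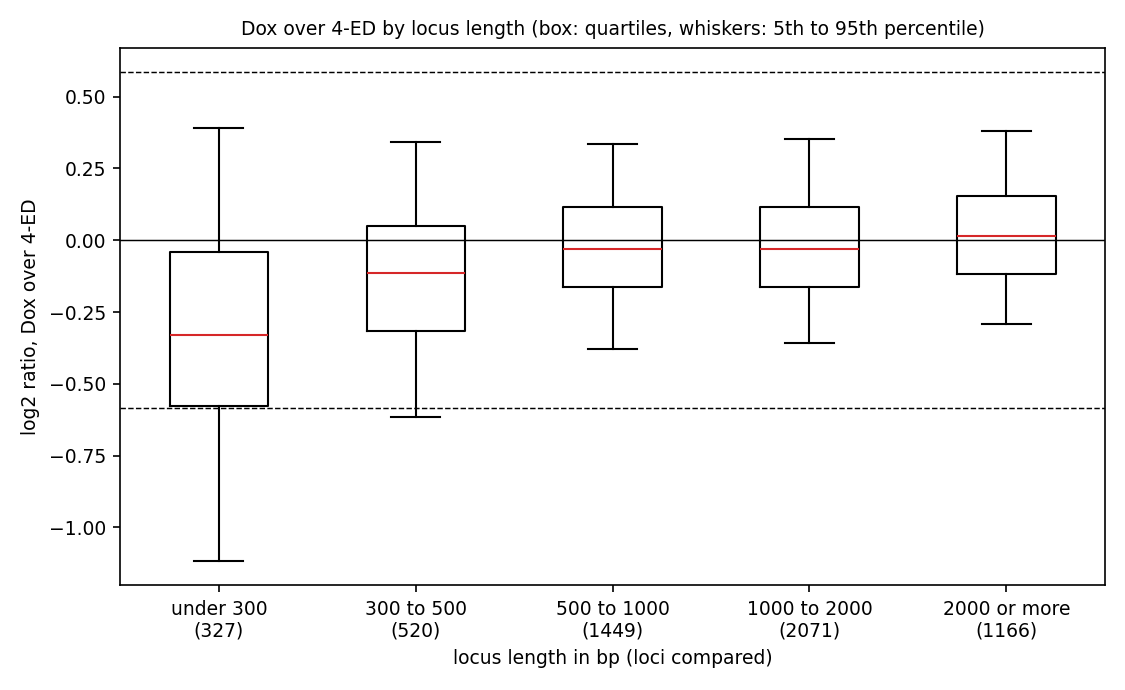
Boxes show the quartiles, and whiskers the 5th to 95th percentile, of the log2 ratio of Dox to 4-ED in 5 bins of locus length in bp, with the number of loci in brackets and dashed lines at 1.5-fold. The median is -0.33 in 327 loci under 300 bp and 0.01 in 1166 loci of 2000 bp or more, and the spread is widest in the shortest bin.

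Among these short loci, named by their rank, DPI8 (YJL133C-A, 225 bp) had 463 FPKM with Dox and 965 FPKM with 4-ED, with 791 FPKM with Tet and 1130 FPKM in control. YDR029W (315 bp) had 42.6 FPKM with Dox and 108 FPKM with 4-ED, with 55.7 FPKM with Tet and 48.1 FPKM in control. The lowest protein-coding locus was YGL006W-A (111 bp), with 4.83 FPKM with Dox and 27.0 FPKM with 4-ED. Its log2 ratio of -2.48 became -2.26 with 1 FPKM added to both values, and it met the minimum mean only through 4-ED. LSM8, of the complex that binds U6 RNA, and RSO55 stood at -1.11 and -1.10, and each shares its span with another locus. On the higher side, RRT15 (YLR162W-A, 189 bp), which has a near-identical copy, had 56.3 FPKM with Dox and 15.4 FPKM with 4-ED, with 10.9 FPKM with Tet and 6.38 FPKM in control. YAR035C-A (81 bp) had 1123 FPKM with Dox and 599 FPKM with 4-ED, with 1139 FPKM with Tet and 448 FPKM in control.

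Small nucleolar and nuclear RNAs guide the modification of ribosomal RNA and take part in splicing, and they lack long poly(A) tails. Of 81 such loci, 73 were compared, 61 had a ratio below 0, 27 were at least 1.5-fold lower and 2 were higher, with a median of -0.40. A total of 69 of the 73 are under 500 bp, and after subtraction of the length bins the median was -0.12. Among members that averaged 100 FPKM or more it was -0.24. Over the list the median log2 ratio to control was 0.01 with Dox, 0.54 with 4-ED and 0.10 with Tet. The members with the largest ratios went both ways. snR72 (98 bp, XIII: 298554 to 298651) had 209 FPKM with Dox and 14.1 FPKM with 4-ED, with 42.8 FPKM with Tet and 117 FPKM in control. snR56 had 93.5 FPKM with Dox and 444 FPKM with 4-ED, with 33.0 FPKM with Tet and 322 FPKM in control. snR161 had 3.73 FPKM with Dox and 24.0 FPKM with 4-ED, so it met the minimum mean only through 4-ED. Its log2 ratio of -2.69 became -2.40 with 1 FPKM added to both values. For snR72 and snR56 the Tet and control values lay far apart as well.

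Loci without a RefSeq entry that share a listed span with a longer gene gave the 3 lowest ratios. YDR149C had 0.449 FPKM with Dox and 23.8 FPKM with 4-ED, with 5.35 FPKM with Tet and 1.77 FPKM in control, a log2 ratio of -5.73. YPR142C had 1.31 FPKM with Dox and 28.9 FPKM with 4-ED, a log2 ratio of -4.47, and YHR073W-A stood at -3.21. All 3 met the minimum mean only through 4-ED, so a ratio far below 0 came with the filter. With 1 FPKM added to both values, the log2 ratios became -4.10 for YDR149C, -3.70 for YPR142C and -2.83 for YHR073W-A. YGR068W-A had 200 FPKM with Dox and 48.3 FPKM with 4-ED, was listed at 0 with Tet and had 4.97 FPKM in control. A further 6 loci were listed at 0 with one of the epimers and have no ratio. With Dox these were YKL145W-A, which had 288 FPKM with 4-ED, YOR161W-A, which had 208 FPKM with 4-ED, and snR67, which had 309 FPKM with 4-ED. With 4-ED they were YFR012W-A, which had 84.9 FPKM with Dox, YNL103W-A, which had 154 FPKM with Dox, and snR65, which had 30.6 FPKM with Dox. An exact 0 in such a file can be a failed estimate, and snR65 was at 0 with Tet also.

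Tet libraries took no part in the ratio and show where the third compound lay. Among the 24 longer protein-coding genes without a shared span that were higher with Dox, Tet lay nearer to Dox than to 4-ED in 21 and between the epimers in 20. Among the 26 such genes that were lower with Dox, Tet lay nearer to Dox in 11 and between the epimers in all 26. The control value lay nearer to Dox in 15 of the 24 higher genes and in 11 of the 26 lower genes. Since genes chosen for a gap between 2 groups will often have any other group in the gap, these counts are a description. Over all classes, Tet lay nearer to Dox in 52 of 64 higher loci and in 117 of 196 lower loci. Across the 4150 longer protein-coding genes, the log2 ratio of Dox to 4-ED and that of Tet to control, which share no library, gave 0.16 for Pearson's r and 0.17 for Spearman's rho. Across 5873 loci they gave -0.02 for Pearson's r and 0.09 for Spearman's rho.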

How the data were processed

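RNA of 12 cultures was extracted as total RNA, selected for mRNA and sequenced, and each label's treatment gave the group. Per the labels and the study's methods, the authors checked reads with FastQC, mapped them with Bowtie2 to R64 and ran Cuffdiff with an Ensembl annotation of that build; versions of these tools are not given in the sources used here. The authors deposited 3 tables, 1 per compound against the shared controls, with 1 FPKM value per group from 3 libraries. Their columns of fold changes, test statistics, p-values and q-values compare a compound with control and were not used.

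The Dox and 4-ED tables were joined by identifier. The Dox values were divided by 1.02, the median ratio of the control values in the Dox table to those in the 4-ED table (range 1.01 to 1.03), and Tet values were scaled likewise. No pseudocount was used, and loci needed a mean of 10 FPKM, so a locus could pass through its value in 1 group alone. Loci with another status than OK (465), under that mean (733) or with no name (1) were left out. Fold past 1.5 is a description, since no test was possible. Names, lengths and sequences came from RefSeq on R64, which 6080 identifiers matched, 81 of them snR names. A near-identical copy is a blastn match over 50% of the length at 90% identity. Locus overlap means a shared listed span, and 342 such loci outside RefSeq got no length. Bins held 5 classes of length, 5 of level and 10 of GC content, and each bin's median was subtracted.

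The members and the 39 gene lists were chosen with earlier results of these data known, and 1 list, of Ty loci, matched none. Genes named were the 12 protein-coding loci and the 3 other loci at each end, up to 4 members past 1.5-fold of each list or else up to 2 of its most abundant, the genes the study names, and loci listed at 0. The lowest and highest member of a list and any gene so marked were named after their values were seen. Calculations were tested on simulated data. Python 3.11.15, numpy 2.4.6, pandas 2.3.3, Biopython 1.88, matplotlib 3.10.9 and blastn 2.17.0 were used.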

Additional observations from a re-analysis of the deposited data

How the results depend on the processing

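No paired analysis was possible because each group has 1 pooled value per locus, and for the same reason no replicate could be left out. Counts of loci at least 1.5-fold higher and lower with Dox were 65 and 197. They were 111 and 309 with a mean of at least 1 FPKM, 127 and 330 with no minimum, and 22 and 105 with a mean of at least 100 FPKM. They were 32 and 31 in loci of at least 500 bp and 36 and 124 in loci that overlap no other listed locus. Protein-coding loci held 47 higher and 102 lower, and at 2-fold there were 12 and 57. Protein-coding genes of at least 500 bp with no overlap, chosen after seeing the data, held 24 and 26. The counts stayed within 1.5 times with no scaling (79 and 170), with each locus divided by its own control (63 and 196), centred on the median (82 and 169) and with 1 FPKM added (60 and 192). The Pearson r with Tet over control was 0.10 at a mean of at least 100 FPKM, against -0.02. Of 378 alternatives for the medians of 38 lists, 356 stayed within 0.1 of the value given and 22 moved by more. With no scaling, division by a locus's own control or centring, all loci shift nearly alike and by less than 0.1. The medians could not move by more under these settings. Counted apart from this, 22 changed sign, and the largest median before the change was the 0.08 of S-phase genes. At a mean of at least 100 FPKM, mitochondrial chaperones and proteases changed from -0.06 to 0.19 and daughter separation genes from 0.02 to -0.21. The subtraction of bins of length, GC content and level was chosen after seeing the data. No named locus past 1.5-fold turned round, but the settings applied to single loci could not have turned one. They shifted all loci nearly alike by a small amount, added 1 FPKM to both values or only left loci out. The cause of the changes in counts and medians was not tested.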

Other observations

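Further groups of genes gave values that belong to none of the comparisons above, and their lists were likewise chosen with earlier results known. Of 38 genes for general stress and storage carbohydrate, 22 had a ratio of Dox to 4-ED below 0, against 57% of all loci, none passed 1.5-fold and the median was -0.04. DDR2, a stress gene of 186 bp, was its lowest member, with 3420 FPKM with Dox and 4882 FPKM with 4-ED. The stress element AGGGG, searched on both strands, was present in 78.9% of the 38 promoter windows of that list, against 23.5% of all windows. It was present in 21.3% of the windows of 47 loci higher with Dox and in 39.4% of those of 99 loci lower with Dox. Of 22 genes of oxidative stress, 17 lay below 0 with a median of -0.12, and TRX2, a thioredoxin gene, had 2861 FPKM with Dox and 3885 FPKM with 4-ED.

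Of 27 iron genes, 17 lay below 0 with a median of -0.12, which was -0.30 among members that averaged 100 FPKM or more. ATX1, a copper chaperone gene on that list, was the only one past 1.5-fold, with 185 FPKM with Dox and 284 FPKM with 4-ED. Among 16 phosphate genes the regulator SPL2 stood at -0.67 and the phosphate transporter gene PHO89 at -0.65, with a median of -0.04 over the list, which was -0.29 among members that averaged 100 FPKM or more. The water channel gene AQY1 had 84.7 FPKM with Dox and 138 FPKM with 4-ED, against 183 FPKM in control, whereas its paralog AQY2 stood at 0.43. Zinc, sulfur, ER folding and Ras and cAMP lists had medians of -0.12, -0.05, 0.00 and -0.05, the sulfur median was 0.07 among members that averaged 100 FPKM or more, and SAM3, given above, was the only member of these 4 lists past 1.5-fold.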
